A study of Mus musculus with 3 samples.

Results

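Of 24461 REV-ERB alpha peaks called in mouse liver, 1725 stood beside a REV-ERB beta peak without touching it. Each of these adjacent alpha peaks overlapped no beta peak by even 1 bp but had a beta peak centre within 1000 bp of its own centre, and the nearest such beta peak was taken as its partner. They made up 7.05% of the alpha list (95% Wilson interval 6.74% to 7.38%), 7.49% of the 23046 alpha peaks on the chromosomes where both lists had peaks, and 17.7% (17.0% to 18.5%) of the 9732 alpha peaks there that overlapped no beta peak. Their partners were 1673 of the 22097 beta peaks. The pairs were chosen by the measured positions of the peaks, so their separation is a description. Heights, local tags and input were not part of the rule, but peak heights decide which places enter a list at all.

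The peaks came from chromatin immunoprecipitation with sequencing (ChIP-seq) of livers of male C57BL/6 mice aged 20 weeks, entrained for 3 days to 12 hours of light and 12 hours of dark and collected at zeitgeber time 8 (hours after lights on). Crosslinking took 30 minutes in disuccinimidyl glutarate (2 mM), which joins proteins to each other, and then 10 minutes in 1% formaldehyde. There was 1 library for REV-ERB alpha, 1 for REV-ERB beta and 1 liver input without antibody, which entered only as a tag count under each peak. The spread between replicate libraries is thus unknown for every value, and the receptors could not be tested against each other. The Wilson intervals treat peaks as independent and cover counting error only. In whole liver, weaker occupancy in all cells and occupancy in fewer cells cannot be told apart, and neither can binding of both receptors in the same cells and in different cells.

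REV-ERB alpha (Nr1d1) and REV-ERB beta (Nr1d2) are heme-binding nuclear receptors. As part of the circadian clock they repress transcription by recruiting the corepressor NCoR and its histone deacetylase. Both recognise the same kind of DNA element, a nuclear receptor half-site with an AT-rich flank, on which they compete with the activating ROR receptors. In liver they also reach chromatin through other DNA-bound factors, and the protein-to-protein crosslinker used here can capture such indirect contacts. At zeitgeber time 8 both proteins are near their daily high in mouse liver. Positions are given in the mm9 assembly, and neither mm9 sequence nor mm9 gene annotation was used here, so the sites are named by position and no gene is assigned to them.

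Adjacent alpha peaks lay close to their partners. The median separation of the centres was 498 bp (quartiles 333 and 664 bp), and the median stretch of DNA between the window edges was 316 bp (quartiles 151 and 482 bp). A separation of up to 500 bp was found in 867 of the 1725 pairs (50.3%). The count per 100 bp was 282 from 201 to 300 bp, 229 from 301 to 400 bp, 283 from 401 to 500 bp and 271 from 501 to 600 bp, and then declined to 109 from 901 to 1000 bp. Beyond the limit the decline went on with no step. The first kb held 1725 alpha peaks without overlap, the second kb 806, the third 547, the fourth 381 and the fifth 276. The partner lay at the higher coordinate in 878 pairs (50.9%, interval 48.5% to 53.3%), an interval that includes equal shares of both directions.

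The adjacent alpha peaks fell into 2 arrangements. In 775 pairs (44.9%, interval 42.6% to 47.3%) the beta partner overlapped another alpha peak, so that the adjacent peak was an additional alpha site beside a place in both lists; these are called flanking alpha peaks here. In the other 950 pairs (55.1%, interval 52.7% to 57.4%) the partner overlapped no alpha peak, and the alpha peak and the beta peak stood side by side with no overlap at all; these are called offset alpha peaks. Among the alpha peaks without overlap in the second to the fifth kb, between 61.3% and 67.8% had a nearest beta peak that overlapped another alpha peak, so the first kb held a lower share of flanking peaks than any of these. Of the 950 offset alpha peaks, 909 (95.7%) were also the nearest alpha peak of their partner.

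The arrangements had different separations. Flanking alpha peaks lay a median of 604 bp from their partner (quartiles 502 and 758 bp, lowest 297 bp), with the highest count, 195 pairs, from 501 to 600 bp. Offset alpha peaks lay a median of 353 bp away (quartiles 259 and 541 bp, lowest 182 bp), with 281 pairs from 201 to 300 bp, 201 from 301 to 400 bp and 123 from 401 to 500 bp. Flanking peaks made up 0.355% of the pairs from 201 to 300 bp, 12.2% from 301 to 400 bp, 56.5% from 401 to 500 bp, and 65.1% to 72.0% in each 100 bp from 501 to 1000 bp. Within each list, no 2 alpha peaks were closer than 384 bp and no 2 beta peaks closer than 528 bp. The part of this spacing in the separations was not tested.

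**Figure D1:**
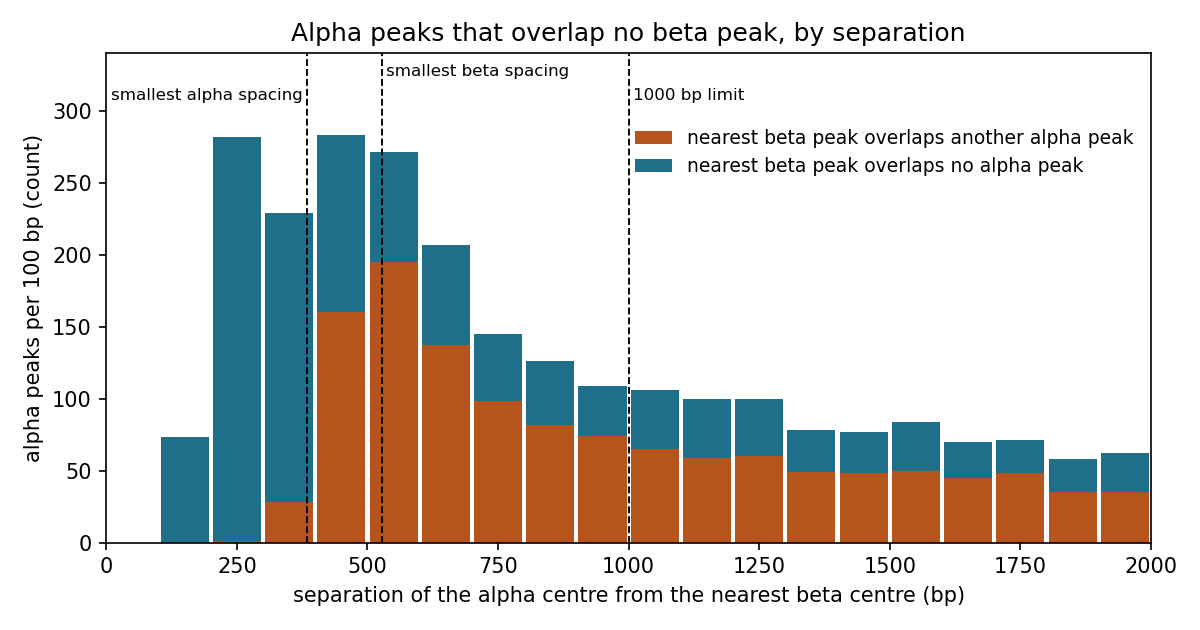
Alpha peaks that overlap no beta peak, counted per 100 bp of separation between the alpha centre and the nearest beta centre (bp), split by whether that beta peak overlaps another alpha peak. The first bar covers only 182 to 200 bp; offset peaks fill the bars below 384 bp almost alone, and flanking peaks reach their highest count of 195 from 501 to 600 bp.

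A pair closer than these spacings left no room in a list for a further peak centred exactly at the other place. A further peak off that centre remained possible, and 14 of the 775 flanking pairs (1.81%) had a separation below 384 bp. A separation below 384 bp was found in 528 of the 950 offset pairs (55.6%), where an alpha peak called at the beta centre would have been closer to the adjacent alpha peak than any 2 alpha peaks in the list. Among the 775 flanking pairs, 256 (33.0%) had a separation below 528 bp, where a beta peak called at the adjacent alpha peak would have been closer to the partner than any 2 beta peaks. Over both arrangements 766 pairs (44.4%) were at least 528 bp apart, so that the smallest spacing of neither list stood against a peak at both places: 519 flanking and 247 offset. Other limits on a call, such as a further peak nearby, were not tested. In these wider pairs 67.8% of the adjacent alpha peaks were flanking, close to the highest share found from the second to the fifth kb.

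Adjacent alpha peaks were of middling height. They held a median of 26 alpha tags in the 153 bp window (quartiles 19 and 38, highest 262), against 35 tags (24 and 56) in the 13314 alpha peaks that overlapped a beta peak and 20 tags (17 and 26) in the 8007 alpha peaks with no beta centre within 1000 bp. Flanking and offset alpha peaks hardly differed in height, with medians of 27 tags (20 and 39) and 25 tags (19 and 37). Counted at unique positions the adjacent peaks had a median of 22, against 30 in overlapping peaks and 17 in those with no beta peak near. Each unique position carried 1.17 tags at the median of adjacent peaks, 1.17 in overlapping peaks and 1.16 in those with no beta peak near. Median input was 3 tags in adjacent peaks and 2 tags in both other groups. Mean input was 2.78 tags in adjacent peaks, 2.81 in overlapping peaks and 2.37 in those with no beta peak near.

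The share of adjacent peaks rose and then fell along the alpha list. By deciles of the list without chromosome 8, it was 6.08% in the lowest decile (11 to 16 tags), 9.20% in the sixth (27 to 32 tags) and 3.86% in the highest (70 to 456 tags). Among the alpha peaks that overlapped no beta peak the share went up with height, with 8.32% in the lowest decile, 20.0% in the fifth, 41.9% in the ninth (50 to 70 tags) and 36.9% in the highest. Of the 241 alpha peaks of the highest decile without an overlapping beta peak, 89 thus had a beta peak within 1000 bp, 36 of them flanking and 53 offset.

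**Figure D2:**
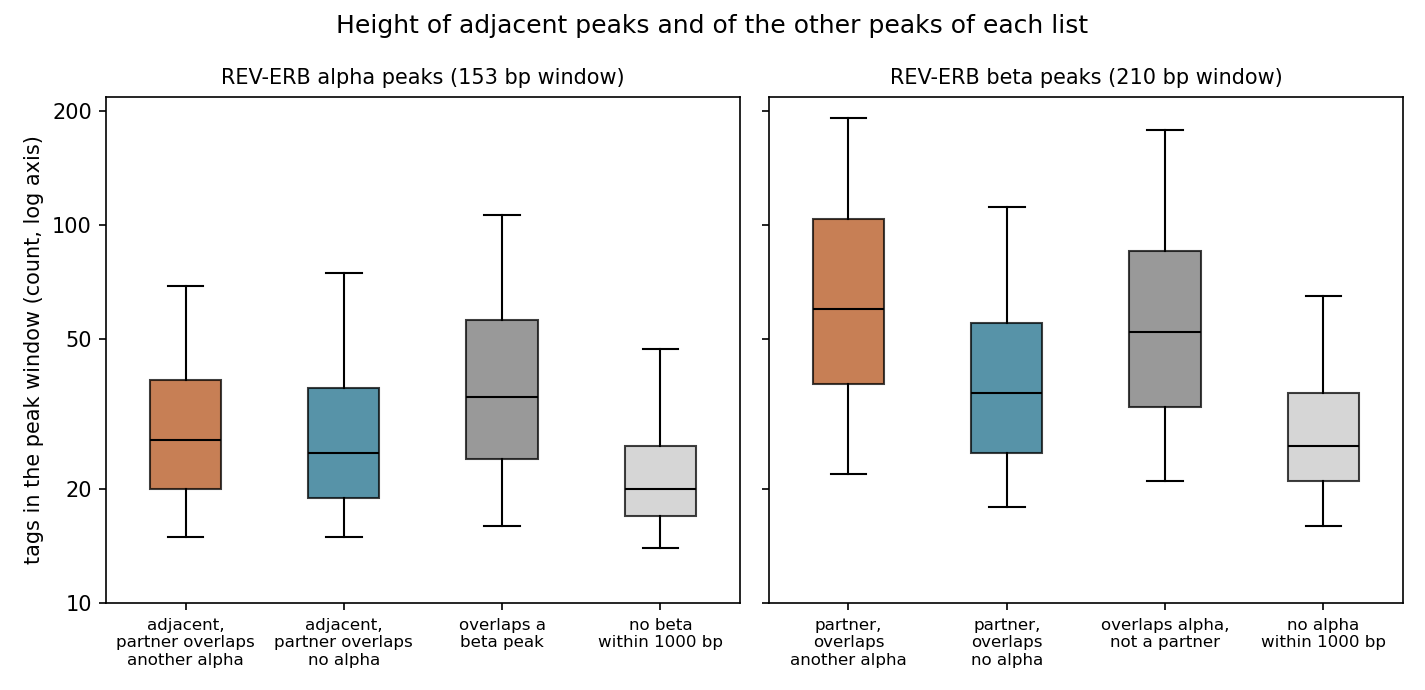
Tags in the peak window (log axis) for alpha peaks on the left and beta peaks on the right; boxes show quartiles and medians, whiskers the 5th and 95th percentiles, and windows differ in size between the lists. Adjacent alpha peaks (medians 27 and 25) lie between overlapping peaks (35) and peaks with no beta peak near (20); partners that overlap another alpha peak (median 60) stand above partners that overlap none (36).

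The heights of the beta partners separated the arrangements more clearly. The 762 partners that overlapped another alpha peak held a median of 60 beta tags in the 210 bp window (quartiles 38 and 104), against 52 tags (33 and 85.2) in the 12552 beta peaks that overlapped an alpha peak and were not partners. The 911 partners that overlapped no alpha peak held 36 tags (25 and 55), against 26 tags (21 and 36) in the 7422 beta peaks with no alpha centre within 1000 bp. In rank, partners of flanking peaks stood at a median of the 71.7th percentile of the beta list, while the flanking peaks themselves stood at the 49.5th percentile of the alpha list. Offset peaks stood at the 44.8th percentile of the alpha list and their partners at the 45.7th of the beta list, so both sides of an offset pair were about equally high in their own list. The alpha percentile was above the beta percentile in 194 of 775 flanking pairs (25.03%) and in 467 of 950 offset pairs (49.2%).

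Ratios of alpha to beta tags largely repeated this contrast in partner height, as the alpha heights of the arrangements hardly differed. The windows of a pair are different places, so the ratio compares heights of neighbours and not both receptors at the same place. Tags of the adjacent alpha peak over tags of its partner were compared with the median ratio of overlapping pairs, 0.688, since the total depth of each library is unknown here and the windows differ in size. A pair that departed from that median by at least 2-fold was counted as leaning, a size used in place of a test. At overlapping pairs 8.40% leaned to alpha and 9.71% to beta by this rule. Among all adjacent pairs 151 of 1725 (8.75%) leaned to alpha and 319 (18.5%) leaned to beta, and 1255 (72.8%) lay within 2-fold. Flanking pairs gave most of the beta-leaning ones: 247 of 775 (31.9%) leaned to beta and 42 (5.42%) to alpha, with a median log2 ratio of -0.60 relative to overlapping pairs (quartiles -1.21 and 0.034). By definition a flanking pair sets an alpha peak without overlap against a beta peak that overlaps an alpha peak. Away from adjacent pairs, alpha peaks without overlap in the second kb had a median of 24 tags. Overlapping beta peaks that were not partners had 52. The part of this definition in the lean was not tested. Offset pairs were centred like overlapping pairs, with a median of 0.048 (quartiles -0.46 and 0.54). Of 950 offset pairs, 72 (7.58%, interval 6.06% to 9.44%) leaned to beta and 109 (11.5%, interval 9.60% to 13.7%) to alpha. The shares at overlapping pairs, 9.71% and 8.40%, lay outside these intervals, which cover counting error only and are no test. The direction on the beta side depended on the scale. The beta-leaning share of offset pairs was below that of overlapping pairs by tags, but above it on both other scales given next. With tags at unique positions, 30.8% of flanking and 8.42% of offset pairs leaned to beta, against 7.64% of overlapping pairs, and 3.61% of flanking and 9.26% of offset pairs leaned to alpha, against 6.53% of overlapping pairs. With tags plus 1 over input plus 1, a scale chosen for these counts after the data were seen, 34.6% of flanking and 21.3% of offset pairs leaned to beta, against 13.2% of overlapping pairs. To alpha leaned 12.6% of flanking and 19.7% of offset pairs on that scale, against 13.8% of overlapping pairs, so offset pairs were then more spread to both sides.

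**Figure D3:**
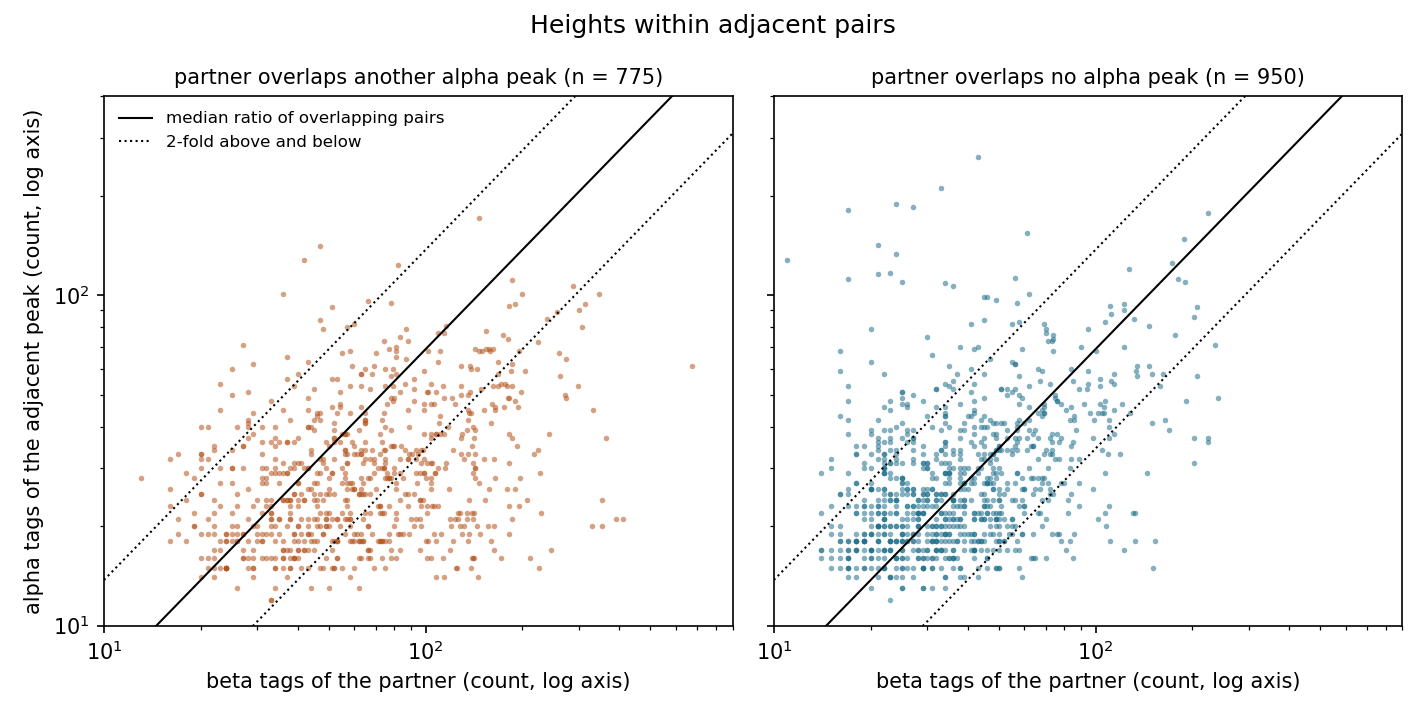
Alpha tags of each adjacent alpha peak against beta tags of its partner (both log axes), for 775 flanking pairs on the left and 950 offset pairs on the right; the solid line is the median ratio of overlapping pairs and the dotted lines are 2-fold to either side. More flanking pairs fall below the lower dotted line (247) than above the upper one (42), while offset pairs scatter around the solid line.

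Within each arrangement the ratio varied moderately with separation. Flanking pairs had medians of -0.18 from 301 to 400 bp (28 pairs), -0.44 from 401 to 500 bp, -0.68 from 501 to 600 bp, -0.75 from 601 to 700 bp and -0.57 from 901 to 1000 bp on this log2 scale. Offset pairs had -0.013 from 201 to 300 bp, 0.088 from 301 to 400 bp, 0.20 from 501 to 600 bp and -0.044 from 901 to 1000 bp. Heights within a pair went together only loosely. Over 1725 pairs Pearson's r of the log2 tag counts was 0.36 and Spearman's rho 0.36, against 0.66 and 0.63 over 13314 overlapping pairs. These correlations run across sites of the same 2 libraries, which share depth and chromatin state. The floor on height in each list narrows the range of counts in both sets. Alpha quartiles were 19 and 38 tags in adjacent peaks and 24 and 56 in overlapping peaks, and the part of the narrower range in the lower r was not tested.

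Adjacent alpha peaks stood in tag-rich surroundings, but so did alpha peaks without overlap somewhat farther from a beta peak. The 10000 bp around an adjacent alpha peak held a median of 242 alpha tags (quartiles 180 and 332), against 218 (156 and 310) around overlapping alpha peaks and 172 (126 and 234) around alpha peaks with no beta peak near. The order was the same once the tags of the peak window were left out, with medians of 214, 178 and 149. Flanking peaks had 273 local alpha tags at the median and offset peaks 222; for flanking peaks the second alpha peak lies inside this stretch and adds to the count. Alpha peaks without overlap whose nearest beta centre lay 1000 to 2000 bp away had a median of 255 local alpha tags. The medians were 249 from 2000 to 3000 bp, 235 from 3000 to 4000 bp and 239 from 4000 to 5000 bp. High local alpha counts were thus not particular to adjacent peaks. On the beta side the 10000 bp around the partners held a median of 239 beta tags, against 229 around all beta peaks that overlapped an alpha peak and 156 around beta peaks with no alpha peak near. Partners that overlapped another alpha peak had 273.5 local beta tags. The 911 partners that overlapped none had 216, fewer than beta peaks that overlapped an alpha peak. The adjacent alpha window took 11.04% of its local alpha tags at the median, against 17.1% for overlapping and 12.1% for peaks with no beta peak near. By arrangement this share was 9.79% for flanking and 12.2% for offset peaks.

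Tag density told the same from the other side. Density in the window over that of the remaining 10000 bp had a median of 7.99 in adjacent alpha peaks, against 13.3 in overlapping peaks and 8.88 in alpha peaks with no beta peak near. The arrangements differed here. Flanking peaks had a median of 6.98, and their remaining stretch includes the second alpha peak. Offset peaks had 8.95, close to alpha peaks with no beta peak near. The lowest density in the whole alpha list was 4.0004 times that of the surroundings. This floor is relative to local tags, so a peak in tag-rich surroundings needs more tags to clear it, and its part in which peaks were listed was not tested. The ratio of local alpha to local beta tags was 0.978 at the median of adjacent pairs and 0.930 at overlapping pairs. It was 0.974 around flanking pairs and 0.979 around offset pairs, so the arrangements were alike in local ratio while their window ratios differed.

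Other peaks were common near adjacent ones. Within 5000 bp, offset alpha peaks had a mean of 0.597 other alpha peaks, against 0.643 for overlapping alpha peaks and 0.391 for alpha peaks with no beta centre within 1000 bp. Of the offset peaks, 523 of 950 (55.1%) had no other alpha peak within 5000 bp, against 52.5% of overlapping peaks and 70.6% of those with no beta peak near. Flanking peaks had at least 1 by definition and a mean of 1.51. Within 25000 bp the mean number of other alpha peaks was 3.64 for flanking, 2.55 for offset and 2.49 for overlapping peaks, against 1.72 for those with no beta peak near. Most partners had a single adjacent alpha peak (1621 of 1673). A further 52 partners had 2, and in 40 of these the alpha peaks stood on opposite sides of the beta peak.

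At flanking sites 3 peaks could be compared: the adjacent alpha peak, the beta partner, and the alpha peak on that partner. The adjacent alpha peak was the lower of the 2 alpha peaks at 569 of 775 sites (73.4%), the higher at 192 (24.8%) and equal at 14. Its tags were 0.714 times those of the alpha peak on the partner at the median (quartiles 0.486 and 1.00), with 213 sites at least 2-fold lower and 24 at least 2-fold higher. The alpha peak on the partner held a median of 40 tags (quartiles 27 and 61), against 35 in all overlapping alpha peaks. Centres of the 2 alpha peaks lay 595 bp apart at the median (quartiles 500 and 768 bp).

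The overlapping pair itself looked ordinary at these sites. Its log2 alpha to beta ratio had a median of -0.076 relative to all overlapping pairs, with 70 sites (9.03%) leaning to alpha and 78 (10.1%) to beta, close to the shares at overlapping pairs at large. Shifts of the beta centre from its alpha centre went in both directions. The beta centre lay on the side of the adjacent peak at 409 sites (52.8%, interval 49.3% to 56.3%), on the far side at 355 and at the same position at 11. The median shift was 3 bp towards the adjacent peak (quartiles -25 and 28.5 bp). The rule kept only beta centres within 1000 bp of the adjacent peak, and its part in these shifts was not tested. At 841 overlapping pairs whose further alpha peak lay 1000 to 3000 bp away, the median shift was -1 bp, with 411 towards and 421 away.

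**Figure D4:**
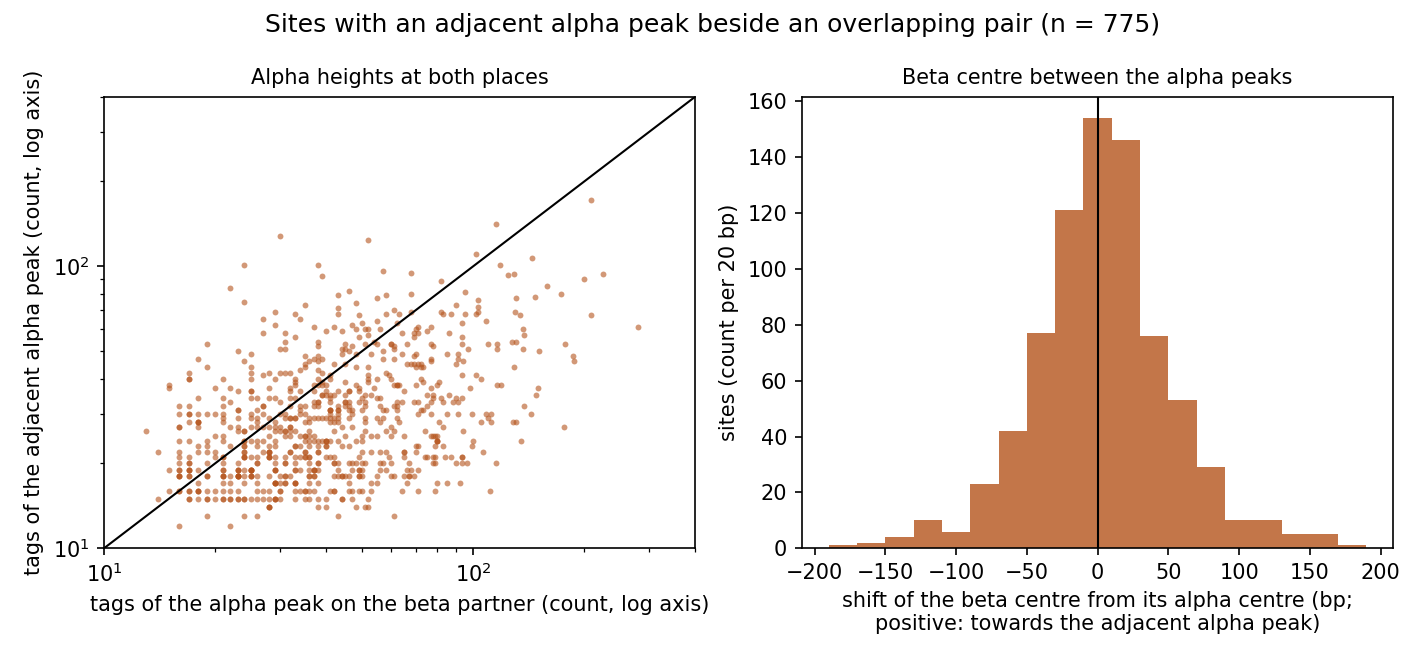
Left, tags of the adjacent alpha peak against tags of the alpha peak on the beta partner (log axes, line of equality); 569 of 775 sites lie below the line. Right, shift of the beta centre from the alpha centre it overlaps (bp, bins of 20 bp, positive towards the adjacent alpha peak), which is centred near 0 with a median of 3 bp.

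The highest flanking site by the geometric mean of alpha and beta tags was on chromosome 7. The adjacent alpha peak at 54001924 to 54002076 held 61 alpha tags, and its partner at 54001270 to 54001480 held 675 beta tags, the second highest count in the beta list. The alpha peak on that partner, at 54001320 to 54001472, held 279 tags, so the higher alpha count lay under the beta peak and the lower one beside it. A second site on chromosome 7 was more even: the adjacent alpha peak at 119593568 to 119593720 held 101 tags, the alpha peak 435 bp away 118 tags and the beta partner at 119593962 to 119594172 held 345 tags. On chromosome 6 the adjacent alpha peak at 17442218 to 17442370 held 107 tags and the alpha peak on the partner 144 tags, and the partner at 17441635 to 17441845 held 288 beta tags.

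The next flanking sites by height were on chromosomes 4 and 1, both with wider spacing. On chromosome 4 the adjacent alpha peak at 133108067 to 133108219 held 94 tags, 902 bp from an alpha peak of 224 tags, and the partner at 133108854 to 133109064 held 314 beta tags. On chromosome 1 the adjacent alpha peak at 95019867 to 95020019 held 90 tags, 875 bp from an alpha peak of 200 tags, and the partner at 95020716 to 95020926 held 299 beta tags. At all 5 of these sites the adjacent alpha peak was lower than the alpha peak on the partner. The remaining flanking sites among the 10 highest adjacent pairs included both orders. On chromosome 17 the adjacent alpha peak at 29521795 to 29521947 held 172 tags beside an alpha peak of 208 tags and a partner of 147 beta tags, and on chromosome 14 that at 21048719 to 21048871 held 80 tags beside 173 alpha and 306 beta tags. On chromosome 7 the adjacent alpha peak at 147903180 to 147903332 held 89 tags, 444 bp from a partner of 256 beta tags, and was higher than the alpha peak of 82 tags on that partner.

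The highest offset pair was on chromosome 2. Its alpha peak at 172978862 to 172979014 held 177 alpha tags and its beta peak at 172978113 to 172978323 held 223 beta tags, with centres 720 bp apart, farther than the smallest spacing within either list. This alpha peak also had the most local alpha tags of all adjacent peaks, 2598 in 10000 bp, while the beta peak had 838 local beta tags. The log2 ratio was 0.21 relative to overlapping pairs (exact Clopper-Pearson interval -0.086 to 0.50, from the tags of both libraries). On chromosome 1 the alpha peak at 182140127 to 182140279 held 148 tags and the beta peak at 182140395 to 182140605 held 189 tags, 297 bp apart. Then came chromosome 7, with 125 alpha tags at 146111367 to 146111519 and 173 beta tags at 146110941 to 146111151, 397 bp apart. Both remaining sites were on chromosome 9. The first had 110 alpha tags at 107577107 to 107577259 and 190 beta tags 399 bp away, and the other had 112 alpha tags at 57940454 to 57940606 and 181 beta tags 362 bp away. In each of these 5 pairs the exact interval of the ratio included the median of overlapping pairs. With tags plus 1 over input plus 1 the log2 ratio was 1.01 for the chromosome 2 pair and -0.96 for the chromosome 7 pair.

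Surroundings rich in alpha tags were found at both kinds of pair. After the chromosome 2 site, the adjacent alpha peaks with the most local alpha tags were a flanking peak on chromosome 17 at 46863001 to 46863153, with 1132 local and 95 window tags, and an offset peak on chromosome 9 at 44296934 to 44297086, with 1070 local and 88 window tags. Then came flanking peaks on chromosome 16 at 22892445 to 22892597, with 1025 local and 61 window tags, and on chromosome 2 at 27455434 to 27455586, with 1009 local and 68 window tags. Beta tags in 10000 bp around their partners were 514, 1358, 526 and 1544, in the same order.

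The 5 adjacent alpha peaks with the most tags were all offset peaks, each beside a beta peak of at most 43 tags. The alpha peak on chromosome 10 at 41239002 to 41239154 held 262 tags against 4 input tags, the 23rd highest count of the alpha list, and its partner at 41238574 to 41238784, 399 bp away, held 43 beta tags. On chromosome 17 the alpha peak at 13200685 to 13200837 held 211 tags and the partner 272 bp away 33 beta tags. On chromosome 19 the peak at 45858088 to 45858240 held 189 alpha tags and its partner, 290 bp away, 24 beta tags. The peak on chromosome 12 at 60232319 to 60232471 held 185 alpha tags, with 27 beta tags 448 bp away, and that on chromosome 18 at 46901278 to 46901430 held 181 alpha tags, with 17 beta tags 299 bp away.

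Of the 5 most alpha-leaning ratios among pairs above the median height, 3 belonged to these pairs. The highest ratio was on chromosome 19, where the alpha peak at 41904262 to 41904414 held 128 tags and the beta peak 551 bp away 11 tags, 16.9-fold above the median of overlapping pairs (log2 4.08, exact interval 3.19 to 5.12). The pairs on chromosomes 18, 19 and 12 given above followed with 15.5-fold, 11.5-fold and 9.97-fold. The fifth was on chromosome 3, with 142 alpha tags at 69120472 to 69120624 and 21 beta tags 375 bp away (9.84-fold). These pairs were picked for their ratios, and the intervals treat every tag as independent. Input tags under the peaks changed the sizes and the order. With tags plus 1 over input plus 1, the log2 ratios of the 5 pairs in the order given were 1.46, 2.87, 3.13, 1.62 and 2.03. The chromosome 17 peak at 13200685 and the chromosome 10 peak at 41239002 stood above them at 4.07 and 3.79. With tags at unique positions the first pair had 3.12.

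The 5 partners with the most beta tags all belonged to flanking peaks. After the chromosome 7 partner of 675 tags came chromosome 12, where 410 beta tags at 105314954 to 105315164 stood 759 bp from an adjacent alpha peak of 21 tags at 105315742 to 105315894, and the alpha peak on the partner held 84 tags. On chromosome 13 the partner at 41923772 to 41923982 held 391 beta tags, the adjacent alpha peak 21 tags and the alpha peak on the partner 93 tags. On chromosome 1 the partner at 191930686 to 191930896 held 363 beta tags, with 37 alpha tags in the adjacent peak and 150 on the partner. On chromosome 11 the partner at 63675723 to 63675933 held 354 beta tags, with 20 alpha tags in the adjacent peak and 115 on the partner, and here the beta centre was shifted 141 bp from its alpha centre towards the adjacent peak.

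The lowest ratios among pairs above the median height were also at flanking peaks. They were led by the sites on chromosomes 12 and 13 just described, 13.4-fold and 12.8-fold below the median of overlapping pairs (log2 -3.75, exact interval -4.45 to -3.12, and -3.68, -4.39 to -3.05). The chromosome 11 site was 12.2-fold below. A second site on chromosome 13, with 20 alpha tags at 91887293 to 91887445 and 328 beta tags 886 bp away, was 11.3-fold below, and one on chromosome 4, with 15 alpha tags at 105037871 to 105038023 and 225 beta tags 620 bp away, was 10.3-fold below. With tags plus 1 over input plus 1 the log2 ratios of these 5 pairs, in the same order, were -2.70, -2.73, -1.55, -1.76 and -2.61. The alpha peaks on these last 2 partners held 48 and 47 tags.

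Beta tags under the adjacent alpha peaks themselves were not counted here, but the local counts set an upper limit on them. The beta tags in 10000 bp around the partner, less those in called beta windows inside that stretch, are all that could lie under the adjacent alpha peak. This remainder had a median of 169 beta tags (range 38 to 999). The number needed for the median ratio of overlapping pairs had a median of 37.8 tags. The remainder fell short of that number at 21 of 1725 adjacent peaks, 6 flanking and 15 offset, and by more than 2-fold at 4 offset peaks. At the other 1704 peaks the limit is too loose to show a difference from overlapping pairs. The same limit was not computed for other alpha peaks, and the rule itself chose peaks without an overlapping beta peak. At overlapping pairs, 8.40% had a ratio at least 2-fold above the median, and the highest log2 ratio relative to it was 3.00.

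The 4 offset peaks that fell short by more than 2-fold, chosen after their values were seen, included 3 of the high alpha peaks above. On chromosome 17 at 13200685 at most 74 beta tags remained against 306.9 at the median ratio, at least 4.15-fold fewer. On chromosome 19 at 45858088 at most 72 remained against 274.9, at least 3.82-fold fewer. On chromosome 5 the alpha peak at 141180479 to 141180631 held 117 tags, and at most 76 beta tags remained against 170.2, at least 2.24-fold fewer. On chromosome 10 at 41239002 at most 177 remained against 381.1, at least 2.15-fold fewer. These are limits for 2 libraries and carry no replicate error. The opposite shortfall, of alpha tags for the beta peak of an offset pair, was seen at 2 of 950 pairs and at neither by more than 2-fold.

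**Figure D5:**
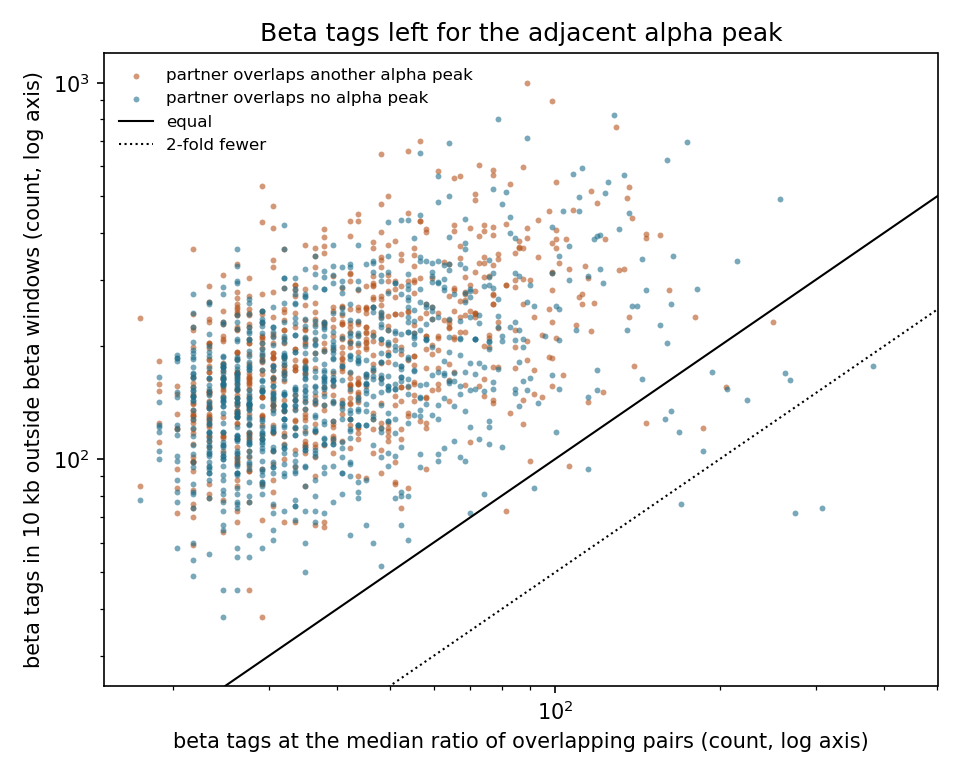
Beta tags in 10000 bp around the partner that lie outside called beta windows, against the beta tags that the adjacent alpha peak would have at the median ratio of overlapping pairs (log axes). At 21 of 1725 adjacent peaks the point lies below the line of equality, and at 4 it lies below the dotted line of 2-fold fewer.

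Peaks on either side of the limits of the rule were alike. The closest adjacent peaks lay 182 bp from the partner, with windows that touch. The first had 63 alpha tags on chromosome 10 at 76038121 to 76038273, beside 55 beta tags. The next had 58 alpha tags on chromosome 11 at 62748758 to 62748910, beside 22 beta tags, and the third 31 alpha tags on chromosome 12 at 106282998 to 106283150, beside 29 beta tags. The most separated overlapping pair, 181 bp apart, had 16 alpha tags on chromosome 19 at 46859259 to 46859411 and 65 beta tags. The 158 adjacent peaks from 182 to 231 bp had medians of 28 alpha, 38 beta and 223 local alpha tags, against 27, 40 and 213 in the 313 overlapping pairs from 132 to 181 bp.

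At the outer limit the farthest adjacent peak, 1000 bp from its partner, held 25 alpha tags on chromosome 9 at 107571339 to 107571491, and the partner 52 beta tags. Next were a peak of 17 alpha tags on chromosome 15 at 98507518 to 98507670, 999 bp from 40 beta tags, and a peak of 39 alpha tags on chromosome 12 at 73185750 to 73185902, 998 bp from 33 beta tags. Just outside, 1001 bp from a beta peak of 154 tags, stood a peak of 30 alpha tags on chromosome 14 at 74030468 to 74030620. A peak of 28 alpha tags on chromosome 9 at 113032580 to 113032732 lay 1002 bp from 19 beta tags, and one of 13 alpha tags on chromosome 1 at 27940722 to 27940874 lay 1005 bp from 21 beta tags. The 109 adjacent peaks from 901 to 1000 bp had medians of 24 alpha, 48 beta and 265 local alpha tags, against 24, 41.5 and 243 in the 106 alpha peaks from 1001 to 1100 bp.

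Adjacent alpha peaks occurred on all 19 chromosomes where both lists had peaks. The share of alpha peaks ranged from 5.44% on chromosome 13 (61 of 1121, interval 4.26% to 6.93%) to 9.46% on chromosome 19 (86 of 909, 7.73% to 11.5%). The X chromosome had 15 of 193 (7.77%). The flanking share ranged from 33.3% of the 15 peaks on X and 34.0% of 106 on chromosome 5 to 57.4% of 61 on chromosome 13, with wide intervals at these counts. By the mirrored rule, 1361 beta peaks overlapped no alpha peak but had an alpha centre within 1000 bp. Of these, 911 (66.9%) were partners of adjacent alpha peaks. The nearest alpha peak of 414 (30.4%, interval 28.0% to 32.9%) overlapped another beta peak; the corresponding share of adjacent alpha peaks was 44.9%. The wider smallest spacing of the beta list, 528 bp against 384 bp in the alpha list, stood beside this share, and its part was not tested.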

How the data were processed

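The submitters' processing notes name the aligner Bowtie, the peak caller HOMER and mm9; no source used here gives their versions, the read filters or the library totals. The authors deposited 1 peak list per antibody, with raw tag counts per window that were not scaled to library size: tags at unique positions, all tags, tags in 10000 bp, and input tags. Per the file headers, windows are 153 bp for alpha and 210 bp for beta. The deposited peak score has a lowest value of 14 (alpha) and 12 (beta); the deposited FDR, a q-value, is 0 in every row and was not used. In all, alpha windows held 910669 tags and beta windows 1227074.

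Distances run between window midpoints, and start and end positions both count as covered. With 1 library per antibody nothing was tested; medians and quartiles are given, with Wilson intervals for shares and, for the ratio of a single pair, Clopper-Pearson intervals (exact). Ratios were centred on the median of overlapping pairs; tags at unique positions and tags plus 1 over input plus 1 were the other scales. Sites were named by fixed rules: the 10 highest pairs, the 5 highest of each arrangement, the 5 with the most alpha, beta or local tags, the 5 most extreme ratios on each side above the median height, and 3 at each limit. The members and rules were chosen with earlier results of these data known. The planned comparisons of location, gene lists and motifs need mm9 annotation or sequence and were not made. Matching was tested on simulated data with sites set far apart and a single adjacent peak per beta peak. Crowded sites and flanking peaks closer than 500 bp were not covered by it. Scripts ran in Python 3.11.15 with scipy 1.17.1, numpy 2.4.6 and pandas 2.3.3.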

Additional observations from a re-analysis of the deposited data

Results flagged for a closer look

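The alpha list had 1415 peaks on chromosome 8, where the beta list as used here had 0, so none of them could be counted as adjacent. They drew attention as signal outside the comparison. Their median was 28 tags, against 27 on the other chromosomes, and their median local count was 222 alpha tags, against 202. No antibody had enough libraries to look for an outlying one.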

How the results depend on the processing

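The values below follow the order of the text: number and share of adjacent alpha peaks, median separation, flanking share, median alpha tags, median partner beta tags, median log2 ratio relative to overlapping pairs, median local alpha tags, mirrored beta peaks, partners with 2 adjacent peaks, and the highest share on a chromosome. As reported they were 1725, 7.05%, 498 bp, 44.9%, 26, 45, -0.20, 242, 1361, 52 and 9.46%. Of 99 alternative values, 32 stayed within the interval of the main value (counts within 1.5 times) and 67 did not. With a limit of 500 bp they were 867, 3.54%, 333 bp, 21.8%, 28, 42, -0.060, 228, 673, 15 and 5.61%. A limit of 2000 bp moved the share to 10.3%, the separation to 652 bp, the flanking share to 50.1%, the mirrored peaks to 2333, the partners with 2 to 150 and the highest share to 14.5%. Where an alpha peak was removed only if 50% of both windows overlapped, there were 3245 (13.3%), at 211 bp, 21.2% flanking, with -0.10, 230 local tags, 2881 mirrored peaks, 138 partners with 2 and 16.7%. Mutually nearest pairs numbered 909 (3.72%), at 346 bp, with 36 beta tags, 0.055, 221 local tags and 5.72%; by construction 0% were flanking and 0 partners had 2. A common lowest score gave 6.61%, 47.5% flanking and 48 beta tags. With tags at least 8 times the input there were 1048 (5.83%), at 519 bp, with 29 alpha and 56 beta tags, -0.25, 258 local tags, 866 mirrored peaks and 29 partners with 2. In the top 50% of each list there were 651 (5.32%), at 514 bp, 53.5% flanking, with 41 alpha, 73 beta and 347 local tags, 513 mirrored peaks, 13 partners with 2 and 7.42%. Leaving out chromosome X moved nothing. Unique positions gave medians of 22 alpha and 29 beta tags, tags over input a ratio of -0.12, and the 10 kb less the window 214 local tags. At separations of at least 528 bp, chosen after the data were seen, there were 766, 67.8% flanking, with 24 alpha, 49 beta and 256 local tags and -0.39. Apart from shorter or longer lists and limits, which change the number by construction, the cause was not tested.

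Ranking by unique positions kept 9 of the 10 highest pairs. Of 108 alternative ratios for the 36 single pairs, 26 left their exact interval, and 3 of these turned sign where that interval excluded 0, each with tags over input. The pair on chromosome 7 at 119593568 had 0.77 (log2 -1.23 by tags, with 0 alpha and 4 beta input tags), that on chromosome 2 at 27455434 had 1.02 (-0.98 by tags, with 0 and 4 input tags), and that on chromosome 12 at 73185750 had -1.73 (0.78 by tags, with 8 and 1 input tags). Tags over input also spread the ratios of offset pairs to both sides, with 21.3% leaning to beta and 19.7% to alpha, against 13.2% and 13.8% of overlapping pairs. No paired analysis was possible because the design holds a single library for each receptor; for the same reason none was left out in turn. Location, gene list and motif alternatives were not run. Peaks below each list's lowest score, and a second peak closer than 384 bp (alpha) or 528 bp (beta), are counted as absent.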
